A study of Mus musculus with 11 samples.

Results

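The genes of the mitochondrial respiratory chain and ATP synthase that are encoded in the nucleus were followed in mouse RAW cells, a macrophage-type line, that carried a hairpin against GIV or a control hairpin. The set holds every gene whose symbol starts with Nduf, Uqcr, Cox4, Cox5, Cox6, Cox7, Cox8 or Atp5, is not marked as a pseudogene by the suffix -ps, and reaches 1 on the log2(TPM + 1) scale in 2 or more libraries. TPM gives each gene's share of all transcripts, corrected for transcript length, so levels of different genes can be compared. Of 52143 rows in the deposited table, 97 had such a symbol and 87 passed the level filter. Atp5a1, Ndufs3 and Uqcrc1 each had another row with identical values under another identifier, which left 84 genes: 38 with symbols of complex I subunits (among them Ndufb4c, annotated as a processed pseudogene and kept because the rule goes by symbol), 8 complex I assembly factors, 8 genes of complex III, 13 of complex IV and 17 of complex V. The genes were thus selected on their symbol and their measured level, with the results of earlier work on these libraries known, and 83 of the 84 genes reached the level filter in all 9 libraries used. Just inside the filter lay Cox6a2, the heart and muscle form of a complex IV subunit, with a mean of 0.835 TPM, and just outside lay Cox4i2, another isoform gene, with a highest value of 0.872 TPM.

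The 4 groups were shGIV cells with LPS for 5 h (3 libraries), shGIV cells without LPS (3 libraries), shC cells with LPS for 5 h (1 library) and shC cells without LPS (2 libraries used). LPS, lipopolysaccharide, is the bacterial cell wall component sensed by Toll-like receptor 4, and was given at 100 ng/ml. GIV, the protein encoded by Ccdc88a, binds actin and regulates G proteins; both lines are RAW cells that carry a short hairpin RNA, and the labels do not say whether either is a clone. No label ties replicates to cultures of their own, and the p-values therefore cover the spread between these libraries alone, which may be technical. Sequencing depth per library cannot be read from TPM values; the labels put it at about 25 to 40, counted in units of 1e+06 reads per sample.

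Complex I (NADH dehydrogenase) and complex III (cytochrome bc1) pass electrons from NADH through ubiquinone to cytochrome c, complex IV (cytochrome c oxidase) hands them to oxygen, and complex V (ATP synthase) uses the resulting proton gradient to make ATP. Each of these complexes joins nuclear subunits, imported after translation in the cytosol, with subunits encoded by mitochondrial DNA, and needs assembly factors that are not part of the finished enzyme. Macrophages given LPS are known to lean on glycolysis and to use their mitochondria less for ATP, and NRF-1, GABPA, YY1 and the coactivators of the PGC-1 family are known regulators of nuclear respiratory genes.

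Promoter letters are shown for Ndufaf4, Ndufs8 and Ndufv2, which were among the genes with the lowest levels under LPS relative to their own levels without it, and whose windows lie outside annotated exons. Each line gives the 200 bases before the annotated start, read 5′ to 3′ on the gene's strand, from RefSeq on GRCm38.p6. The windows are chr4:24897883-24898082 on the plus strand for Ndufaf4, chr19:3912775-3912974 on the minus strand for Ndufs8 and chr17:66101560-66101759 on the minus strand for Ndufv2. Capitals mark a match to the NRF-1 motif.
Ndufaf4: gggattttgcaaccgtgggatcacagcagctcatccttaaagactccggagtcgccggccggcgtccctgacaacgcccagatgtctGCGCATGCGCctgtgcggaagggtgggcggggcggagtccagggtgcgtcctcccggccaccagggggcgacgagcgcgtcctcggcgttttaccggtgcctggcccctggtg
Ndufs8: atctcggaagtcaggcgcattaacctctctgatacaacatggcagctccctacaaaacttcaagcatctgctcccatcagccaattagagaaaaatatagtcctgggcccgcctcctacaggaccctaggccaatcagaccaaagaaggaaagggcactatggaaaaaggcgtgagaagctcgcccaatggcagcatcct
Ndufv2: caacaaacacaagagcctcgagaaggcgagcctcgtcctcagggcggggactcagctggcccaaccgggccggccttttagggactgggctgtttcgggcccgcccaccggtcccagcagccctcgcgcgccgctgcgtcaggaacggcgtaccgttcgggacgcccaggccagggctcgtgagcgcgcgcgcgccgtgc

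The match in Ndufaf4 begins 113 bases before the start. Motifs were searched on both strands in windows of 250 bases before to 50 bases after the start. Such windows were found for 70 of the 84 genes and for 27025 genes in all. In this paragraph all genes means these 27025, which include genes not tested here, whereas the set was selected on level. Shares among the tested genes alone were not computed, so an excess over all genes may not be particular to the set. The palindromic NRF-1 motif, of which the capitals above are a match, was held by 17 of the 70 (24.3%), against 5.19% of all genes. The ETS motif CCGGAAG, which GABPA can bind, was held by 16 (22.9%, against 9.93%), the YY1 motif AANATGGCG by 11 (15.7%, against 2.76%) and the E-box CACGTG by 6 (8.57%, against 8.09%). The windows of the set held a median of 20 CpG pairs, against 8 in all genes. In shGIV cells the median LPS difference in log2(TPM + 1) was -0.62 for the 17 genes with an NRF-1 match and -0.56 for the 53 without one. The other 3 motifs went the other way: it was -0.49 for genes with and -0.63 for genes without an ETS match, -0.49 and -0.62 for YY1, and -0.53 and -0.62 for the E-box. In shC cells the medians were -0.45 with and -0.35 without an NRF-1 match, -0.34 and -0.44 for ETS, -0.34 and -0.40 for YY1, and -0.36 and -0.40 for the E-box. None of these differences was tested. A match describes letters in a window and is not evidence of binding.

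Ccdc88a, the targeted transcript, lay at 3.08, 2.62 and 3.39 TPM in shGIV cells with LPS, against 5.77 TPM in the shC library with LPS. Without LPS it lay at 6.93, 5.31 and 5.58 TPM in shGIV cells, against 10.0 and 7.69 TPM in shC cells. The groups did not overlap, but neither difference passed the threshold over all genes (-0.75 ± 0.19, limma adjusted p = 0.0681 with LPS; -0.50 ± 0.15, adjusted p = 0.2325 without). The library labelled shC replicate 2 without LPS was left out: Mir6236 took 57.8% of its TPM, against 3.79% to 8.78% elsewhere, the 84 genes added up to 677 TPM in it, and their median difference to the other 2 shC libraries without LPS was -4.56 log2 units (-1.85 over all genes tested). With it included no gene of the set passed the threshold in either LPS comparison, where 10.4% of all genes were lower in shGIV cells and 0.381% in shC cells. Replicate 3 of shC cells with LPS was not analysed here. All 10 macrophage markers examined were above 1 TPM in every library; fibroblast, epithelial, T cell and B cell lists added up to at most 0.753 TPM, and the neutrophil list to 13.3 to 17.3 TPM with LPS and 1.09 to 3.95 TPM without, nearly all of it S100a8.

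The 84 genes were among the more abundant transcripts of these cells. Their mean level over the 9 libraries had a median of 161 TPM, against 12.2 TPM for the 13711 genes tested, and 62 of the 84 averaged at least 100 TPM. The highest means were those of Atp5b, the catalytic beta subunit of ATP synthase (957 TPM), Uqcrh, the hinge protein of complex III (729 TPM), and the complex V subunit Atp5l (657.5 TPM). Cox4i1, the common isoform of cytochrome c oxidase subunit 4, averaged 657.4 TPM and Cox6b1 averaged 630 TPM. The lowest after Cox6a2 were Atp5s, a factor related to ATP synthase (5.17 TPM), and the complex I assembly factors Ndufaf7 (11.4 TPM) and Ndufaf6 (12.8 TPM), followed by the muscle-type subunit Cox7a1 (15.3 TPM). Isoform pairs were far apart in these cells: Cox6a1 averaged 558.7 TPM where Cox6a2 averaged 0.835 TPM, and the sperm form Cox6b2 averaged 0.0612 TPM. Ndufb1-ps, which the suffix keeps out of the set although its level is high, lay between 121 and 136 TPM.

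Together the set made up less of the transcript pool with LPS than without it. Its summed level was 14788, 14854 and 14652 TPM in shGIV cells with LPS, against 21085, 21613 and 21872 TPM in shGIV cells without. In shC cells it was 15747 TPM in the library with LPS, against 18839 and 21302 TPM without. No library with LPS reached the level of a library without LPS in its own line. Mitochondrially encoded subunits were lower as well, so that the set came to 0.323 to 0.428 of their summed TPM in shGIV cells with LPS and 0.266 to 0.345 without. In shC cells that ratio was 0.399 with LPS, against 0.230 and 0.421 without. In these bulk samples fewer cells that express a gene and less of its RNA per cell cannot be told apart, nor can a lower amount of these transcripts and a larger amount of others. Replicate 1 of shC cells without LPS was lower than replicate 3 for 70 of the 84 genes, with a median of -0.16 log2 units (-0.11 over all genes tested).

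**Figure D1:**
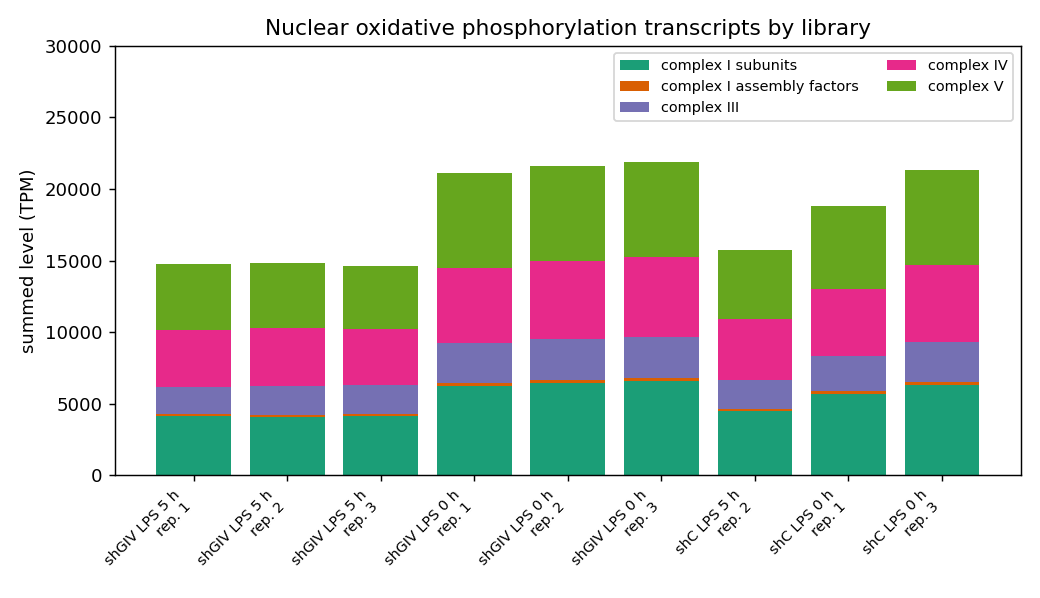
Summed level of the 84 genes in TPM (vertical axis) in each of the 9 libraries, split by complex. The 3 shGIV libraries with LPS sit between 14652 and 14854 TPM and those without LPS between 21085 and 21872 TPM; the shC library with LPS is at 15747 TPM, against 18839 and 21302 TPM.

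In shGIV cells 82 of the 84 genes were lower with LPS than without, none was higher, and Ndufs4 and Cox6a2 did not pass the threshold (limma, Benjamini-Hochberg adjusted p under 0.05). Among all 13711 genes tested 59.7% were lower and 15.8% higher in that comparison. In shC cells 53 of the 84 were lower and none was higher, where 44.1% of all genes were lower and 14.8% higher. At an unadjusted limma p under 0.05, 58 of the 84 were lower, where 8729 of the 13711 genes tested differed in either direction. The shC comparison rests on 1 library with LPS, which the model assumes to vary like the other groups. That library carries replicate number 2, and the shC libraries used without LPS carry numbers 1 and 3. LPS and replicate number therefore cannot be told apart in shC cells. In shGIV cells the differences ran between -1.14 and -0.13 in complex I subunits, -1.37 and -0.29 in assembly factors, -0.75 and -0.31 in complex III, -0.72 and -0.19 in complex IV, and -1.37 and -0.36 in complex V. The median difference of the set in log2(TPM + 1) was -0.59 in shGIV cells and -0.40 in shC cells, and the median over all genes was -0.54 in shGIV cells and -0.40 in shC cells. Relative to the median gene, 46 genes of the set were lower and 38 higher in shGIV cells, and 42 were lower and 42 higher in shC cells. Among abundant transcripts the set stood further from the rest: the 1868 genes with a mean log2 level of at least 6 had medians of -0.34 in shGIV cells and -0.15 in shC cells, and the 69 genes of the set at that level had medians of -0.56 and -0.36. Of those 1868 genes 59.3% were lower in shGIV cells, as were 68 of the 69, and 35.8% were lower in shC cells, as were 45 of the 69. The 53 genes lower in shC cells were all lower in shGIV cells too, and 29 passed the threshold in shGIV cells only; the test of the difference between the lines is given further on.

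How the libraries were scaled decided the direction for many of these genes. TMM scaling, which assumes that most genes do not change, gave 15 higher and 15 lower genes in shGIV cells (32.3% and 34.8% of all genes) and 6 higher and 4 lower in shC cells (26.3% and 26.3%). Subtracting each library's median over all genes gave 28 higher and 11 lower in shGIV cells (37.1% and 28.8% of all genes), and 15 higher and 2 lower in shC cells (30.5% and 21.9%). Quantile normalization gave 0 higher and 75 lower in shGIV cells (27.3% and 40.7% of all genes) and 0 higher and 70 lower in shC cells (21.7% and 31.8%). TPM rescaled after removal of mitochondrial genes and of the 100 genes with the highest levels gave 0 higher and 81 lower in shGIV cells (17.8% and 56.3%), and 0 higher and 62 lower in shC cells (14.7% and 47.9%). The median of all genes was -0.04 with TMM and -0.16 with quantile normalization in shGIV cells. Values after subtracting each library's median are called centred below, and their differences are not relative to the median gene. In centred values the median difference of all genes was 0.11 in shGIV cells and 0.10 in shC cells. That of the set was 0.06 and 0.10. In TPM, TMM, quantile, rescaled and centred values alike, 11 genes were lower in shGIV cells, a list read off after the values were seen: Atp5c1, Ndufa8, Ndufaf4, Ndufaf6, Ndufaf7, Ndufb10, Ndufb3, Ndufb8, Ndufs7, Ndufs8 and Ndufv2. Ndufaf2, Ndufaf3 and Ndufs1 were lower in the first 4 of these scalings but not in centred values. In shC cells Atp5c1 and Ndufaf4 were lower in all 5, and Ndufb3 and Ndufv2 in all but centred values. The share of all genes lower in all 5 was not computed, so these lists show nothing particular to the set. In centred values alone, 28.8% of all genes were lower in shGIV cells and 21.9% in shC cells. Complex I subunits and assembly factors make up 46 of the 84 genes, and whether they are over-represented in these lists was not tested.

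**Figure D2:**
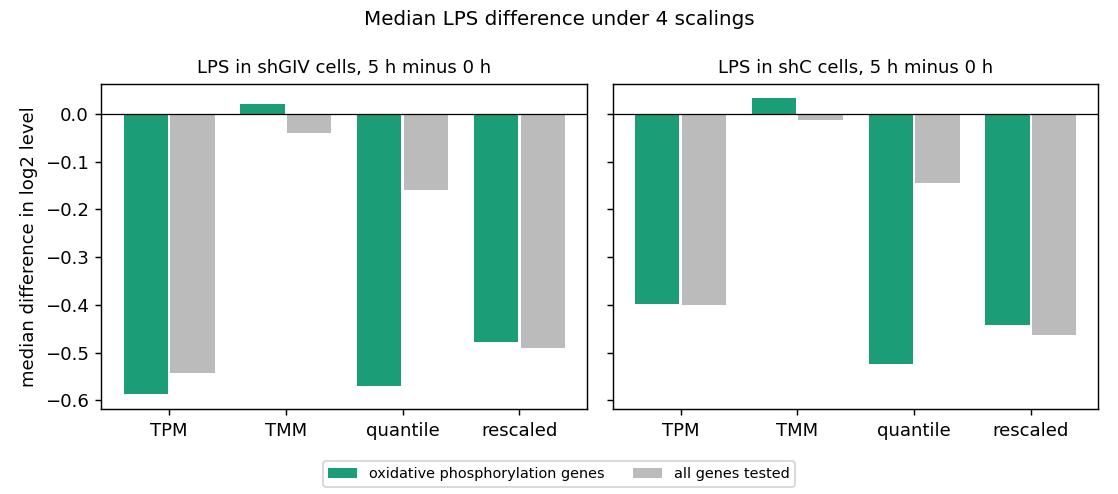
Median LPS difference, 5 h minus 0 h, in log2 level (vertical axis) of the 84 genes (green) and of all genes tested (grey) under 4 scalings, in shGIV cells (left) and shC cells (right). The set sits near the typical gene in TPM, TMM and rescaled values and below it in quantile values, where its median is -0.57 in shGIV cells and -0.52 in shC cells, against -0.16 and -0.15; with TMM its median is just above 0.

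Counts by complex, here and below, are to be read against the shares of all genes. In TPM values 59.7% were lower and 15.8% higher in shGIV cells, and 44.1% lower and 14.8% higher in shC cells. With TMM 34.8% were lower and 32.3% higher in shGIV cells, and 26.3% lower and 26.3% higher in shC cells. Complex I held 3 genes at -1.14 in shGIV cells, Ndufs7, Ndufs8 and Ndufb10. Of its 38 subunits 37 were lower with LPS in shGIV cells and 28 in shC cells, with medians of -0.62 and -0.43; with TMM these counts were 5 higher and 8 lower in shGIV cells, and 3 higher and 2 lower in shC cells. The 7 core subunits that carry the flavin, the iron-sulfur clusters and the quinone site, a grouping chosen after the values were seen, were all lower in both lines, with medians of -0.87 in shGIV cells and -0.63 in shC cells in TPM values. With TMM 4 of the 7 were lower in shGIV cells and 1 in shC cells, with none higher; in centred values 3 were lower and 1 higher in shGIV cells, and 0 lower and 1 higher in shC cells. Ndufs8, an iron-sulfur subunit (GRCm38 chromosome 19, 3908863 to 3912774, minus strand), lay at 108, 114 and 105 TPM in shGIV cells with LPS, against 236, 246 and 241 TPM without. In shC cells it lay at 124 TPM with LPS, against 183 and 207 TPM without. Libraries with LPS were below those without in each line, and the log2 difference was -1.14 ± 0.06 (SE, limma adjusted p = 1.10e-06) in shGIV cells and -0.65 ± 0.09 (adjusted p = 0.000532) in shC cells.

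Ndufs7, the subunit with the last iron-sulfur cluster before ubiquinone, lay at 63.0, 82.8 and 63.0 TPM in shGIV cells with LPS, against 141, 160 and 160 TPM without, a difference of -1.14 ± 0.13 (SE, limma adjusted p = 8.19e-05). The accessory subunit Ndufb10 lay at 64.0, 64.8 and 59.6 TPM in shGIV cells with LPS, against 134, 138 and 146 TPM without. Ndufv2, a flavoprotein subunit, lay at 59.5, 51.6 and 57.8 TPM in shGIV cells with LPS, against 111, 115 and 111 TPM without. Neither gene's groups overlapped. In shC cells the differences of Ndufs7, Ndufb10 and Ndufv2 were -0.75 ± 0.19, -0.68 ± 0.14 and -0.75 ± 0.09, each past the threshold. Ndufs4, an accessory subunit at the electron input end of the complex (chromosome 13, 114287795 to 114388258, minus strand), did not pass the threshold in either line. It lay at 99.6, 93.6 and 102 TPM in shGIV cells with LPS, against 101, 113 and 109 TPM without. In shC cells it lay at 96.1 TPM with LPS, against 97.6 and 101 TPM. The shGIV groups overlapped, the shC library with LPS was just below both without, and the differences of -0.13 ± 0.06 in shGIV cells and -0.05 ± 0.09 in shC cells missed it (limma adjusted p = 0.0827 and 0.669); after each library's median over all genes was subtracted Ndufs4 was higher, by 0.52 (adjusted p = 0.000182) in shGIV cells and 0.45 (adjusted p = 0.00520) in shC cells.

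Ndufa4, which is counted by name with complex I but is now regarded as a complex IV subunit, lay at 378, 356 and 380 TPM in shGIV cells with LPS, against 497 to 543 TPM without. In shC cells it lay at 388 TPM with LPS, against 494 and 495 TPM. In centred values Ndufa4 was higher in shGIV cells, by 0.17 (limma adjusted p = 0.0305). Ndufab1, the mitochondrial acyl carrier protein, had differences of -0.86 in shGIV cells and -0.45 in shC cells. The symbol Ndufb4c, at 129.9 to 211 TPM over the 9 libraries and named here for its annotation, is a processed pseudogene in GENCODE M21, and all of its 31-base words also occur in Ndufb4, so reads of the parent and the copy could be exchanged between them. Ndufaf2 shares 65.1% of its words with the long noncoding gene B230220B15Rik, and 34 of the 84 genes share more than 10% of theirs with another gene.

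Of the complex I assembly factors all 8 were lower in shGIV cells and 6 of 8 in shC cells, with medians of -0.92 and -0.62; TMM left 5 lower and 1 higher in shGIV cells, and 1 lower and 0 higher in shC cells. Quantile values put the medians of these assembly factors at -0.29 in shGIV cells and -0.17 in shC cells. Ndufaf4 (chromosome 4, 24898083 to 24905001, plus strand), whose promoter is printed above, had the largest difference of the set in shC cells. It lay at 9.61, 8.53 and 8.29 TPM in shGIV cells with LPS, against 26.0, 25.5 and 21.9 TPM without. In shC cells it lay at 8.77 TPM with LPS, against 25.0 and 23.1 TPM. The log2 differences were almost equal in the lines, -1.37 ± 0.09 (SE, limma adjusted p = 3.15e-06) in shGIV cells and -1.36 ± 0.13 (adjusted p = 7.86e-05) in shC cells. Ndufaf3 and Ndufaf7 lay at -0.97 and -0.96 in shGIV cells, and at -0.85 and -0.74 in shC cells. Ndufaf1, which acts early in assembly of the membrane arm, stood at the other end: it lay at 21.7, 16.0 and 19.6 TPM in shGIV cells with LPS, against 25.7, 22.4 and 22.2 TPM without. That difference of -0.29 ± 0.11 passed narrowly in TPM values (limma adjusted p = 0.0459), but Ndufaf1 was higher with TMM (0.30, adjusted p = 0.0401) and in centred values (0.36, adjusted p = 0.0194), and the one in shC cells, -0.39 ± 0.17, did not (adjusted p = 0.0772).

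**Figure D3:**
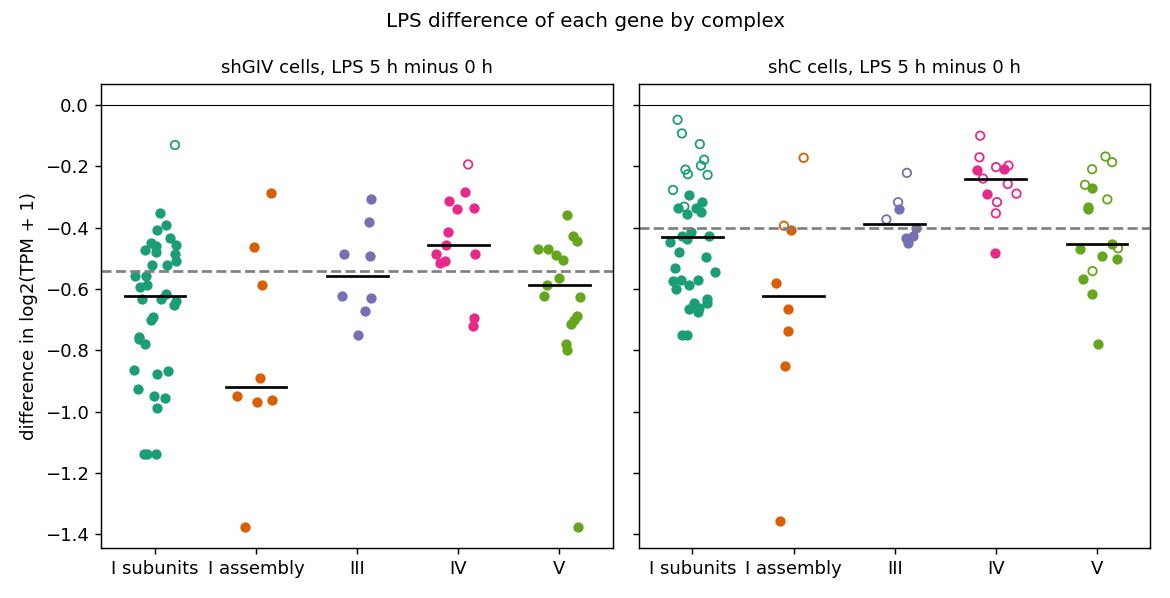
LPS difference of each of the 84 genes, 5 h minus 0 h, in log2(TPM + 1) (vertical axis) by complex, in shGIV cells (left) and shC cells (right); filled points passed the threshold, open points did not, short bars are group medians and the dashed line is the median of all genes tested (-0.54 and -0.40). In these TPM values assembly factors of complex I have the lowest medians, -0.92 and -0.62, and complex IV the highest, -0.46 and -0.24. The order depends on scaling: in quantile values assembly factors are nearest to 0, at -0.29 and -0.17, and complex IV lies at -0.54 and -0.50. With TMM scaling the medians of complexes III and IV are above 0 in both lines. Those of complex V in shGIV cells and of complex I subunits in shC cells are above 0 too.

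All 8 genes of complex III were lower in shGIV cells and 5 in shC cells, with medians of -0.56 and -0.39; TMM left 1 higher in shGIV cells and none called in shC cells. Uqcr11, a small subunit named here after its value was seen, lay at 313, 348 and 313 TPM in shGIV cells with LPS, against 567, 526 and 549 TPM without (-0.75 ± 0.10, limma adjusted p = 0.000198). Uqcrb, which sits at the quinone-binding side, lay at 285, 282 and 320 TPM with LPS, against 360, 365 and 370 TPM without (-0.31 ± 0.06, adjusted p = 0.00177). In neither gene did the shGIV groups overlap in TPM. Uqcrb turned to higher with TMM (0.30, limma adjusted p = 0.0119) and in centred values (0.35, adjusted p = 0.00477).

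Complex IV had the median nearest to 0 in TPM values, but in quantile values the assembly factors of complex I did. Of its 13 genes, 12 were lower in shGIV cells and 4 in shC cells, where 59.7% and 44.1% of all genes were lower. The medians of complex IV were -0.46 and -0.24. TMM turned the call to 5 higher and 0 lower in shGIV cells and to 2 higher and 0 lower in shC cells. Cox5a, a subunit on the matrix side and named after its value was seen, lay at 251, 232 and 245 TPM in shGIV cells with LPS, against 354, 402 and 426 TPM without (-0.69 ± 0.08, limma adjusted p = 6.34e-05). Cox6b1, which faces the intermembrane space, lay at 536, 549 and 576 TPM with LPS, against 669, 681 and 716 TPM without (-0.31 ± 0.05, adjusted p = 0.000962). In shC cells Cox6b1 lay at 618 TPM with LPS, against 640 and 685 TPM, and its difference of -0.10 ± 0.08 did not pass (adjusted p = 0.321). Cox6b1 turned to higher with TMM, by 0.30 in shGIV cells and 0.35 in shC cells (limma adjusted p = 0.00403 and 0.0173), and in centred values. Cox7a2l, known as a factor that joins complexes III and IV into supercomplexes, differed by -0.51 ± 0.05 in shGIV cells and -0.21 ± 0.07 in shC cells in TPM. In centred values it differed by 0.14 and 0.29, both past the threshold the other way, where the median of all genes was 0.11 and 0.10.

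All 17 genes of complex V were lower in shGIV cells and 10 in shC cells, with medians of -0.59 and -0.45; TMM gave 3 higher and 2 lower in shGIV cells, and 1 higher and 1 lower in shC cells. Atp5c1, the central gamma stalk (chromosome 2, 10056016 to 10080510, minus strand), lay at 171, 158 and 161 TPM in shGIV cells with LPS, against 292, 285 and 278 TPM without. In shC cells it lay at 160.5 TPM with LPS, against 275 and 277 TPM. Its differences of -0.80 ± 0.05 and -0.78 ± 0.07 (SE, limma adjusted p = 2.57e-06 and 6.89e-05) were close to each other. The beta subunit Atp5b, part of the same F1 head, lay at 836, 879.8 and 728 TPM in shGIV cells with LPS, against 1089.6, 1148 and 1136 TPM without, and differed by -0.47 in shGIV cells and -0.19 in shC cells, of which only the first passed; in centred values both were higher, by 0.18 and 0.31 (limma adjusted p = 0.04996 and 0.0378). The median of all genes in centred values was 0.11 in shGIV cells and 0.10 in shC cells. The scarce Atp5s had the widest error of the set: it lay at 3.99, 1.32 and 2.41 TPM with LPS, against 9.14, 5.69 and 9.15 TPM without (-1.37 ± 0.30, limma adjusted p = 0.00342). Across the 84 genes the LPS differences in shGIV and shC cells had a Pearson r of 0.83 and a Spearman rho of 0.87, against 0.89 and 0.85 over all genes; the points are genes measured in the same libraries of each line and are not independent replicates.

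**Figure D4:**
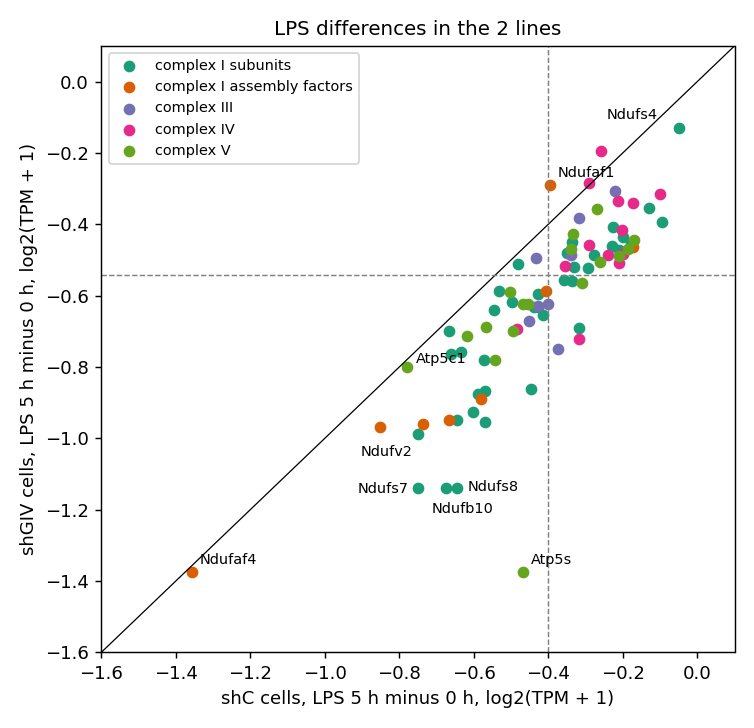
LPS difference of each of the 84 genes in log2(TPM + 1) in shGIV cells (vertical axis) against shC cells (horizontal axis), coloured by complex; the solid line marks equal differences and dashed lines mark the medians of all genes tested (-0.54 and -0.40). Most points lie under the line; Ndufaf4 and Atp5c1 lie close to it and Ndufs4 is nearest to 0.

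Other genes of the pathway, from lists drawn up for this set, are to be read against 59.7% of all genes lower and 15.8% higher in shGIV cells, and 44.1% lower and 14.8% higher in shC cells. In complex II and electron carriers 8 of 9 were lower in each line, the exception being cytochrome c (Cycs, 0.20 in shGIV cells and 0.28 in shC cells), which did not pass in either; with TMM 2 were higher and 5 lower in shGIV cells, and 1 higher and 4 lower in shC cells. Sdha, the flavoprotein of succinate dehydrogenase, lay at 52.1, 55.5 and 52.1 TPM in shGIV cells with LPS, against 126, 127 and 121 TPM without. Sdhb and Sdhd differed by -0.88 and -0.83 in shGIV cells, and by -0.78 and -0.79 in shC cells. Mitochondrially encoded subunits were lower in 12 of 13 cases in shGIV cells and 6 of 13 in shC cells, close to the share of all genes there, with medians of -1.05 and -0.75; TMM left 4 and 0 of them lower and none higher. The cytochrome b gene mt-Cytb differed by -1.24 in shGIV cells and -0.70 in shC cells.

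Assembly factors of complexes II to V went both ways: 27 of 32 tested were lower and 4 higher in shGIV cells, and 18 lower and 5 higher in shC cells; with TMM 14 were lower and 7 higher in shGIV cells, and 9 lower and 7 higher in shC cells. Bcs1l, which inserts the Rieske protein into complex III, lay at 3.39, 3.44 and 3.16 TPM in shGIV cells with LPS, against 13.6, 15.4 and 14.6 TPM without. Uqcc3 and Sdhaf1 differed by -1.64 and -1.80 in shGIV cells. The higher genes in both lines were Cox17, the copper chaperone of complex IV (730, 647 and 718 TPM in shGIV cells with LPS, against 436, 416 and 445 TPM without), Coa5, Ttc19 and Cox18; their differences in shC cells were 0.81, 1.02, 0.81 and 0.63. Among regulators 10 of 15 tested were lower and 2 higher in each line, near the share of all genes in shGIV cells; with TMM 7 were lower and 4 higher in shGIV cells, and 4 lower and 4 higher in shC cells. Ppargc1b, a PGC-1 coactivator, lay at 0.166, 0.374 and 0.920 TPM in shGIV cells with LPS, against 6.17, 6.88 and 6.37 TPM without. Tfam, which packages and transcribes mitochondrial DNA, differed by -1.19 in shGIV cells and -1.21 in shC cells, and Nrf1 by -0.60 in shGIV cells and -0.36 in shC cells. Myc (2.72 in shGIV cells, 3.37 in shC cells) and Gabpb1 (0.33 and 0.43) were the higher ones.

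AA467197, the mouse homolog of human C15orf48 and a paralog of Ndufa4, was high where the set was low. It lay at 27.1, 20.3 and 22.7 TPM in shGIV cells with LPS and at 10.6 TPM in the shC library with LPS. Without LPS it was listed at 0 in all 3 shGIV libraries, and at 0.0821 TPM and 0 in shC cells. With LPS it was 1.07 ± 0.17 log2 units higher in shGIV than in shC cells (SE, limma adjusted p = 0.01645), but adjusted p was 0.0794 with the replicate number as a block, 0.157 with a pseudocount of 0.1 and 0.0557 without shGIV replicate 3 with LPS, and the difference of the LPS responses did not pass in TPM values (1.13, adjusted p = 0.08315). That difference passed with TMM (1.29, limma adjusted p = 0.0437), and its adjusted p was 0.0631 to 0.715 under the other alternatives. The difference of AA467197 between the lines with LPS also did not pass with only the 2 groups compared or with all 10 libraries. Ndufa4 itself differed by -0.07 between the lines with LPS. Atpif1, the inhibitor of ATP synthase, differed by -0.62 with LPS in shGIV cells and -0.35 in shC cells.

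**Figure D5:**
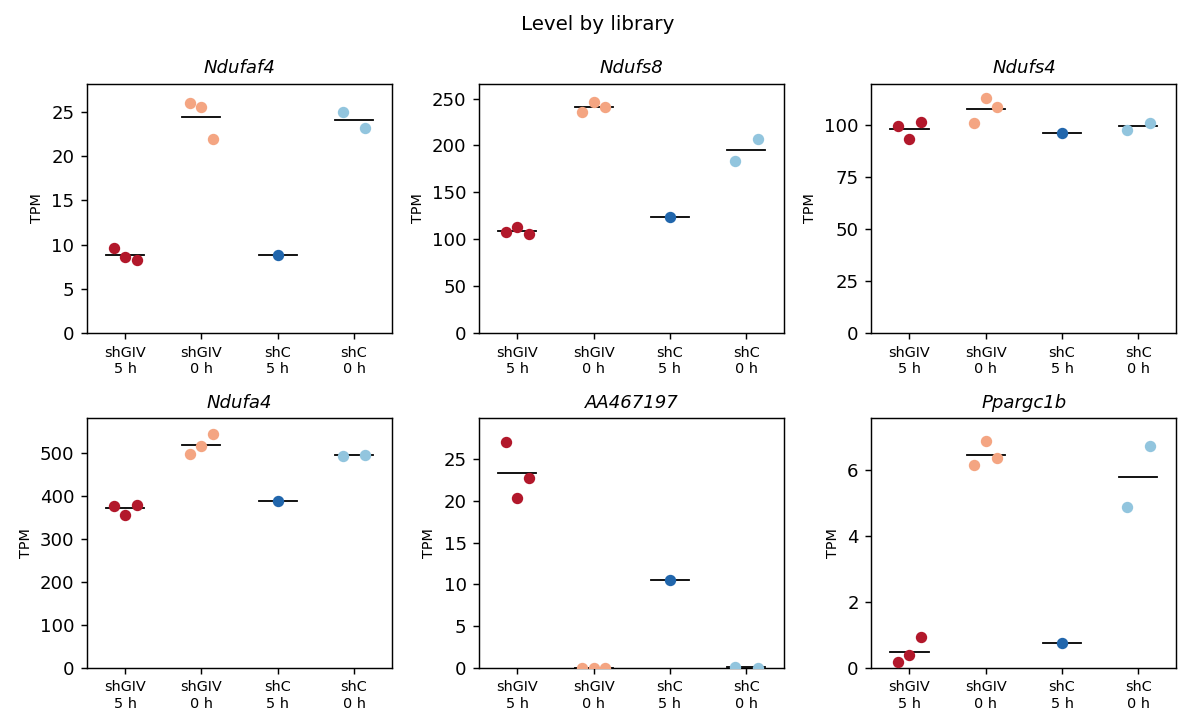
Level in TPM (vertical axes, each from 0) of 4 genes of the set, Ndufaf4, Ndufs8, Ndufs4 and Ndufa4, and of AA467197 and Ppargc1b, in each library by group; points are libraries and bars are group means. AA467197 is at 20.3 to 27.1 TPM in shGIV cells with LPS and 10.6 TPM in the shC library with LPS, and at or near 0 without LPS, while Ndufs4 stays between 93.6 and 113 TPM in all 9 libraries.

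Depletion of GIV without LPS gave no call in the set. None of the 84 genes passed the threshold of limma, where 1.22% of all genes did. At an unadjusted limma p under 0.05, 7 were higher and 1 lower in shGIV cells, where 1678 of the 13711 genes tested differed in either direction. The median of the set was 0.09, against 0.02 over all genes, and 69 genes had a positive and 15 a negative difference. The nearest to the threshold was Ndufs8, at 236, 246 and 241 TPM in shGIV cells, against 183 and 207 TPM in shC cells. The groups did not overlap, and the difference of 0.31 ± 0.07 had an adjusted p of 0.104 in TPM values. It alone passed in TMM values (0.31, limma adjusted p = 0.0439, where 0.744% of all genes were higher), quantile values (0.27, adjusted p = 0.0409, 0.883%), rescaled values (0.27, adjusted p = 0.0266, 0.751%) and centred values (0.31, adjusted p = 0.0317, 0.875%). Replicate 1 of shC cells, the lower of its pair for most of the set, moved with these values: without it the difference of Ndufs8 in TPM values was 0.22, and its part in the result was not tested. Among the pathway lists Uqcc2, an assembly factor of complex III, was higher at 332, 344 and 347 TPM in shGIV cells, against 231 and 259 TPM in shC cells (0.48 ± 0.07, limma adjusted p = 0.0183). Its limma adjusted p was 0.0580 with the replicate number as a block, and 0.0530 to 0.0828 without any 1 of the shGIV libraries without LPS. It was 0.0707 with no filter, 0.129 with only the 2 groups compared and 0.472 with all 10 libraries. Nor did Uqcc2 pass without shC replicate 1 without LPS, where the difference was 0.39.

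With LPS none of the 84 genes passed either in limma, where 5.27% of all genes did. At an unadjusted limma p under 0.05, 0 were higher and 8 lower in shGIV cells, where 3031 of the 13711 genes tested differed in either direction. The median of the set was -0.10, against -0.12 over all genes. The nearest was Cox7a2l, at 149, 154 and 155 TPM in shGIV cells, against 187 TPM in the shC library (-0.29 ± 0.07, limma adjusted p = 0.0520). It passed with a pseudocount of 0.1 (limma adjusted p = 0.0493, where 4.68% of all genes were lower), and with Atp5j2 (-0.41) and Ndufb10 (-0.36) when either shC library without LPS was left out (limma adjusted p = 0.0328 without replicate 1 and 0.0327 without replicate 3 for Cox7a2l, where 5.71% and 5.81% of all genes were lower). These differences rest on a lone shC library, whose spread is assumed to be that of the other groups.

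The difference of the LPS responses, that of shGIV cells minus that of shC cells, gave no call in the set in limma, where 0.226% of all genes passed. At an unadjusted limma p under 0.05, 0 genes of the set were higher and 8 lower, where 2374 of the 13711 genes tested differed in either direction. The median was -0.21, against -0.15 over all genes, and with TMM scaling it was -0.05. Ndufs8 was nearest to the threshold, at -0.49 (limma adjusted p = 0.0984), and Ndufb10 lay at -0.46 (adjusted p = 0.228); Ndufaf4 and Atp5c1 differed by -0.02 each. The comparisons share their libraries, so these values are not independent of those above. The shC response in this difference compares libraries of different replicate numbers, which cannot be told apart from LPS.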

How the data were processed

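Libraries were made with a stranded total RNA kit and read from both ends over 100 bases, per the labels' protocols. The authors deposited log2 values, log2(TPM + 1) per gene, made with kallisto 0.45.0 on GRCm38, per the submitters' processing notes; the annotation release is not given in the sources used here. TPM was recovered by reversing the log. The 13711 genes that reached 1 on this scale in 2 or more of 9 libraries were tested with limma 3.58.1 in R 4.3.3, in 1 model of 4 groups with a mean-variance trend and 5 residual degrees of freedom, with Benjamini-Hochberg adjustment over all of them and a threshold of 0.05. Differences are on the log2(TPM + 1) scale, which understates changes of scarce genes. The fit was tested on simulated data in which few genes changed, up or down at random. In the LPS comparisons most genes passed, mostly lower, and that setting was not simulated. The members, lists and named genes (largest differences from the median gene in each direction, highest and lowest levels, fixed isoform genes, called list genes) were chosen with earlier results of these data known. Rows repeating another row's values (167) stayed in the fit and were counted once. Alternatives were all 10 libraries, a replicate block, TMM (trims of 30% and 5%), quantile, rescaled and centred values, no filter, a stricter filter, a pseudocount of 0.1, no trend, only the 2 groups compared and leaving out each library; centring and removing repeated rows were chosen after seeing the data. Positions and shared 31-base words came from GENCODE M21. Figures used Python 3.11.15 and matplotlib 3.10.9.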

Additional observations from a re-analysis of the deposited data

How the results depend on the processing

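In TPM values the count of genes past the threshold for LPS in shGIV cells was 82 and for LPS in shC cells 53, and 0 in each of the other comparisons. With the left-out library included 0 passed in either LPS comparison. TMM gave 30 in shGIV cells and 10 in shC cells, and subtracting the median gave 39 and 17, with higher calls outnumbering lower ones in all but the TMM count for shGIV cells. For LPS in shC cells 33 passed with no filter and 3 with only the 2 groups compared. For GIV depletion without LPS 1 passed (Ndufs8) with TMM, quantile, rescaled and centred values, and for depletion with LPS 1 passed with a pseudocount of 0.1. Leaving out 1 library gave 81 to 82 for LPS in shGIV cells, 37 to 58 for LPS in shC cells and 0 to 3 for depletion with LPS. By construction the no-filter setting adds tests, and including the left-out library adds a library. The scalings and the pseudocount change the scale, the replicate block adds terms to the model, and the remaining settings named here drop libraries. Otherwise the cause was not tested. For LPS, the share of all genes passing is not given here with no filter, 2 groups, the replicate block or 1 library left out. Under those settings a loss of calls in the set cannot be told apart from a loss over all genes. Replicate numbers paired the samples weakly if at all: 7 same-numbered pairs had correlations of -0.0013 to 0.0972, and 14 differently numbered pairs -0.0972 to 0.0362. Between shGIV cells with and without LPS the same-numbered pairs lay at 0.062, 0.072 and 0.097, and the differently numbered ones below 0. Values within a group are tied to each other: those of the 2 shC libraries without LPS are exact opposites, such as 0.0972 and -0.0972. The contrast of same-numbered with differently numbered pairs is therefore partly fixed in advance and decides nothing about pairing. With the replicate block 82 and 46 genes passed for LPS, and 0 elsewhere. The difference of the LPS responses was not run with only 2 groups, and the shC contrasts with LPS have no value without shC replicate 2 with LPS.

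The lists that follow cover named genes only and are not complete for the set, in which other genes also changed sign. Subtracting the median of all genes here means subtracting each library's own median level. With the left-out library included, log2 differences for LPS in shC cells lay above 0 (below 0 in TPM values) for Ndufaf3 (0.45), Atp5c1 (0.78), Ndufs7 (0.69), Ndufv2 (1.00), Ndufaf7 (0.067), Ndufb10 (0.71), Ndufaf2 (0.85), Ndufa11 (0.81), Ndufb5 (0.75), Uqcrh (1.68), Ndufaf6 (0.38), Ndufa4 (1.63), Cox7a2 (1.52), Cox7a2l (1.29), Ndufab1 (0.97), Atpif1 (1.61), Sdhb (0.61), Sdhd (0.53), Uqcc2 (0.99), Uqcc3 (0.32), mt-Cytb (1.28), mt-Nd2 (1.06), Nrf1 (0.34). With TMM scaling, log2 differences for LPS in shC cells lay above 0 (below 0 in TPM values) for Ndufs4 (0.40), Ndufa7 (0.35), Cox6b1 (0.35), Ndufa1 (0.32), Atp5l (0.28), Uqcrh (0.11), Ndufa4 (0.10), Cox7a2 (0.16), Cox7a2l (0.24), Ndufab1 (0.0016), Atpif1 (0.094), Nrf1 (0.071). With TMM scaling, log2 differences for LPS in shGIV cells lay above 0 (below 0 in TPM values) for Ndufs4 (0.47), Cox7a2 (0.32), Ndufaf1 (0.30), Uqcrb (0.30), Cox6b1 (0.30), Cox6c (0.27), Cox7b (0.27), Ndufa1 (0.25), Atp5f1 (0.25), Atp5b (0.14), Uqcrh (0.12), Atp5l (0.17), Cox4i1 (0.20), Ndufa4 (0.13), Cox6a1 (0.12), Cox7a2l (0.10), Cox8a (0.095), mt-Co1 (0.17). With quantile normalization, log2 differences for LPS in shC cells lay above 0 (below 0 in TPM values) for Nrf1 (0.037). With quantile normalization, log2 differences for LPS in shGIV cells lay above 0 (below 0 in TPM values) for Ndufaf1 (0.24). After subtracting the median of all genes, log2 differences for LPS in shC cells lay above 0 (below 0 in TPM values) for Ndufs4 (0.45), Ndufa7 (0.41), Cox6b1 (0.40), Ndufa1 (0.37), Atp5l (0.33), Cox7b (0.33), Ndufb2 (0.32), Atp5b (0.31), Cox7c (0.30), Uqcrh (0.16), Cox4i1 (0.30), Ndufa4 (0.15), Cox7a2 (0.21), Cox7a2l (0.29), Ndufab1 (0.055), Atpif1 (0.15), Nrf1 (0.15). After subtracting the median of all genes, log2 differences for LPS in shGIV cells lay above 0 (below 0 in TPM values) for Ndufs4 (0.52), Cox7a2 (0.37), Ndufaf1 (0.36), Uqcrb (0.35), Cox6b1 (0.34), Cox6c (0.32), Cox7b (0.31), Ndufa1 (0.30), Atp5f1 (0.29), Atp5b (0.18), Uqcrh (0.17), Atp5l (0.21), Cox4i1 (0.24), Ndufa4 (0.17), Cox6a1 (0.16), Cox7a2l (0.14), Cox8a (0.14), Atpif1 (0.029), mt-Co1 (0.21), Nrf1 (0.049).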
